A study of Homo sapiens with 20 samples.

Results

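The SA1 binding sites of CHM13 cells were compared with those of RPE-1 cells. All SA1 peaks on chromosomes 1 to 22 and X were taken, 38153 of CHM13 and 10707 of RPE-1 cells. Together they make 48860 of the 188301 peaks that the study's 6 lists hold on these chromosomes of hg38. A peak was called shared when it overlapped an SA1 peak of the other line by at least 1 bp, which gave 10394 shared and 27759 CHM13-only peaks in CHM13 cells, and 10437 shared and 270 RPE-1-only peaks in RPE-1 cells. Both lines are immortalised with hTERT. CHM13 cells stem from a hydatidiform mole of the complete type and RPE-1 cells from the pigment epithelium of the retina, and neither received a treatment or carries a gene deletion according to the labels.

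ChIP-seq of the cohesin subunits RAD21, SA1 and SA2 was performed with 3 replicates of each subunit for CHM13 and 2 for RPE-1, beside total chromatin, in 20 libraries. The same SA1 antibody was used in both lines, while the RAD21 antibodies differed. Chromatin was sheared in a bath sonicator for RPE-1 cells and a focused ultrasonicator for CHM13 cells, and Drosophila chromatin was added as an internal control in CHM13 cells only. The study also states more reads for each CHM13 SA1 library than for each RPE-1 one. Shearing, added chromatin, read depth, the number of replicates and the line therefore cannot be told apart. This bears on the unequal numbers of peaks, on differences of width between the lines and on every division into shared and one-line peaks. Each list merges the replicates of a line and gives positions only, so no spread between replicates could be measured and no test was made. Peak height and gene expression are not in the lists, signal tracks were not used here, and the identity of the cells could not be checked against marker genes. Intervals are 95% intervals that treat peaks as independent and cover counting error only.

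Cohesin is a ring of SMC1, SMC3 and RAD21 that carries 1 of the stromal antigen proteins, SA1 (encoded by STAG1) or SA2 (STAG2). It holds sister chromatids together and forms chromatin loops, whose ends often lie at sites bound by the zinc-finger protein CTCF. SA1-cohesin is known for its part in telomere cohesion and for its prevalence at CTCF sites, and SA2-cohesin for centromere cohesion and for sites between enhancers and promoters.

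The following windows of 101 bases of the hg38 plus strand show what these sites look like. The site that the study used as a ChIP-PCR control is shown at the centre of its RPE-1 peak, because both lines had SA1 there. The others are among the widest peaks of up to 2 kb in each group with a match to the CTCF core in their 300 central bases and no exon, so that the match is part of their choice. Capitals mark the CTCF core (CCA, 2 free bases, AG, 2 free bases and GGC, on either strand). The control window has no match to these letters.
Control site, both lines (chr20:1503761-1503861): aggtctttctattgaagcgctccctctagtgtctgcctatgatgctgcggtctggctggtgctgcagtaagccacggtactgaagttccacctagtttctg
Shared site, nearest gene METTL15 (chr11:28529737-28529837): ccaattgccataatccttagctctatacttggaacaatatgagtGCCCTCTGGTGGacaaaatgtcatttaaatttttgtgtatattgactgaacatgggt
Shared site, nearest gene GJE1 (chr6:141562964-141563064): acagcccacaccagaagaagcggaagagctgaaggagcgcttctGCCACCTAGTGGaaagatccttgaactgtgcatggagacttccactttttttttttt
CHM13-only site, nearest gene VGLL3 (chr3:86774240-86774340): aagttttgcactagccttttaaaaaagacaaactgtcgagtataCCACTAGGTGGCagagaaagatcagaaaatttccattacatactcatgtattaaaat
CHM13-only site, nearest gene TOMM20 (chr1:235093769-235093869): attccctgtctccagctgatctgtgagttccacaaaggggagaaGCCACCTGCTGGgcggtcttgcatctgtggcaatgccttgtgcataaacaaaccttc
RPE-1-only site, nearest gene ACVR2A (chr2:147083012-147083112): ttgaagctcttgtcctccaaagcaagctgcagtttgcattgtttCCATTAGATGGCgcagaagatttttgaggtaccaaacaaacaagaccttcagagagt
CHM13-only site without RAD21, nearest gene SLC6A15 (chr12:84397451-84397551): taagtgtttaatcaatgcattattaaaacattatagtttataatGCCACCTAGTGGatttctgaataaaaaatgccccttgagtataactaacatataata
RPE-1-only site without RAD21, nearest gene DACH1 (chr13:71477890-71477990): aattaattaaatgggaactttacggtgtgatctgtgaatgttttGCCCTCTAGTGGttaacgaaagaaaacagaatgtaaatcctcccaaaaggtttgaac

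The control peak spanned 725 bp in CHM13 cells (chr20:1503444-1504168) and 385 bp in RPE-1 cells (chr20:1503619-1504003), where it lay inside the CHM13 peak, and the CHM13 peak was 11.9 kb from the start of SIRPB2. The CHM13-only site near VGLL3 had a peak of 1292 bp, and the core match began 6 bp from its centre. The RPE-1-only site whose nearest gene was ACVR2A had a peak of 484 bp between genes, with a RAD21 peak of RPE-1 cells and no cohesin peak of CHM13 cells.

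Nearly every SA1 site of RPE-1 cells was also an SA1 site of CHM13 cells. Of the RPE-1 peaks, 97.5% (97.2 to 97.8%) overlapped an SA1 peak of CHM13 cells, whereas 27.2% (26.8 to 27.7%) of the CHM13 peaks overlapped one of RPE-1 cells. On the CHM13 v1.0 lists, which use no hg38 satellite models, the shares were 97.1% of 10910 RPE-1 peaks and 28.5% of 36986 CHM13 peaks, with 318 RPE-1-only and 26432 CHM13-only peaks. The shared peaks formed 10437 pairs, in which 43 CHM13 peaks held 2 RPE-1 peaks each. The RPE-1 peak lay wholly inside the CHM13 peak in 97.8% of pairs, and the CHM13 peak was the wider one in 99.2%. The centres of a pair were a median of 28.0 bp apart and the CHM13 peak was 1.84 times as wide as its RPE-1 partner at the median. On CHM13 v1.0 this ratio was 1.63, since shared RPE-1 peaks had a median width of 449 bp there against 398 bp on hg38, while shared CHM13 peaks had 731 bp on both builds. Whether the lists of both builds were made with the same settings is not stated in the sources used here.

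Peaks of only one line were seldom near misses. Of the 270 RPE-1-only peaks, 3 lay within 1 kb of an SA1 peak of CHM13 cells, and the median gap to the nearest one was 114 kb. Of the 27759 CHM13-only peaks, 294 lay within 1 kb of an SA1 peak of RPE-1 cells, with a median gap of 82.0 kb. When at least 50% of both peaks had to overlap, the shares fell to 17.3% in CHM13 and 61.8% in RPE-1 cells. This rule also fails where a CHM13 peak is much wider than the RPE-1 peak inside it. The fall is therefore not read as a difference of position.

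Shared sites were wider than the sites of one line. The median width was 731 bp (728 to 733 bp) for shared and 557 bp (555 to 560 bp) for CHM13-only peaks in CHM13 cells, a difference of 174 bp (170 to 177 bp) that had the same sign on all 23 chromosomes. In RPE-1 cells the medians were 398 bp (396 to 400 bp) and 359 bp (342 to 368 bp), a difference of 39.0 bp (29.8 to 56.1 bp). The share of CHM13 peaks with an RPE-1 partner rose from 1.98% at widths of 228 to 393 bp to 56.1% at 717 to 784 bp, and was 39.7% at 931 to 7280 bp. It therefore did not rise steadily with width: the widest class was shared less often than the 3 classes from 664 to 930 bp, which lay between 44.5% and 56.1%. In RPE-1 cells the share with a CHM13 partner ranged from 95.3% in the narrowest of 5 width classes to 99.1% in the widest.

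**Figure D1:**
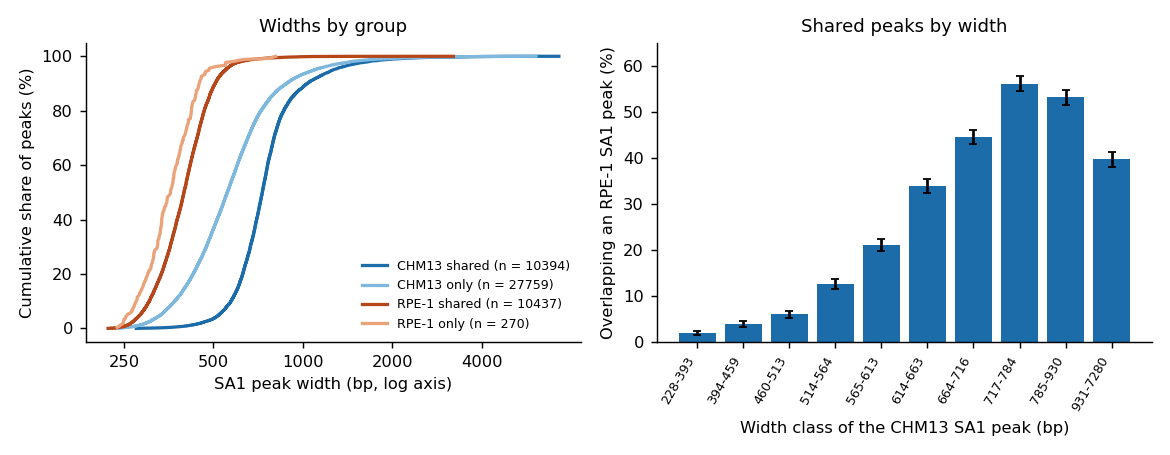
The left panel plots the cumulative share of SA1 peaks (%) against peak width (bp, log axis) for the 4 groups on hg38, and the right panel the share of CHM13 SA1 peaks that overlap an RPE-1 SA1 peak (%) in 10 width classes, with Wilson 95% intervals as error bars. Shared CHM13 peaks lie farthest to the right, and the shared share is highest, 56.1%, at 717 to 784 bp.

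The very wide CHM13 peaks were mostly at gene starts. Of the 324 CHM13 SA1 peaks over 2 kb, 179 (55.2%) lay within 1 kb of the start of a protein-coding gene, and 110 (34.0%) were shared. The widest shared start peak covered 7280 bp at FLRT2, a fibronectin leucine-rich repeat transmembrane protein, followed by 5026 bp at the cell adhesion gene ALCAM and 4873 bp at the corepressor gene TLE1. FAT1, MYC, TENT5A, ANGPT1, CEBPD and HAS2 were also among the 10 widest, down to 4038 bp at HAS2, which encodes a hyaluronan synthase. The widest CHM13-only start peak covered 6094 bp at NRP1, a co-receptor for semaphorins and VEGF, followed by KLF6 (5582 bp), IRS1 (5186 bp) and PHLDA1 (5167 bp). CITED2, ZFP36L2, FOXO3, ZNF608 and SNAI2 were also among the 10 widest, with 3987 bp at SNAI2. All of these named peaks had RAD21 and SA2 peaks of CHM13 cells, and the named CHM13-only ones also had an RPE-1 RAD21 peak, except those at FOXO3 and ZNF608.

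Gene starts were more common among CHM13-only than among shared sites. A protein-coding start lay within 1 kb of 9.54% (9.20 to 9.89%) of CHM13-only and 4.05% (3.69 to 4.45%) of shared CHM13 peaks, a difference of -5.49 percentage points for shared minus CHM13-only peaks (-5.99 to -4.97), with the same direction on all 23 chromosomes. Read the other way, 13.7% (12.5 to 15.0%) of the 3069 CHM13 SA1 peaks at starts were shared, against 31.8% at exons, 27.4% in introns and 28.2% between genes. In RPE-1 cells 3.60% of shared and 2.59% of RPE-1-only peaks (7 of 270) lay at starts, and the difference of 1.01 percentage points was within its interval around 0 (-1.67 to 2.39).

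The CHM13-only start peaks differed from the shared start peaks in their other cohesin subunits. SA2 of CHM13 cells overlapped 54.7% of the 2648 CHM13-only and 99.3% of the 421 shared start peaks. RAD21 of RPE-1 cells overlapped 25.1% and 94.3%, respectively. Shared peaks overlap an RPE-1 SA1 peak by definition, so the grouping itself raises their share with RPE-1 RAD21. The medians of their widths were 657 bp (645 to 667 bp) and 766 bp (744 to 798 bp).

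The groups also lay at unlike distances from genes. Over all peaks of a group, those at starts included, the median distance to the nearest protein-coding start was 39.9 kb (38.6 to 41.5 kb) for shared and 60.7 kb (58.9 to 62.5 kb) for CHM13-only peaks in CHM13 cells. It was 40.1 kb for shared and 184 kb (140.0 to 226 kb) for RPE-1-only peaks. Without the peaks at starts, the medians were 43.3 and 76.0 kb in CHM13 cells and 43.2 and 199 kb in RPE-1 cells. CHM13-only peaks were thus more frequent than shared ones both at starts and far from them: 39.5% of them, 26.0% of shared CHM13 peaks and 62.6% (56.7 to 68.1%) of RPE-1-only peaks lay more than 100 kb from a start. Of the RPE-1-only peaks, 47.8% were in introns, 45.6% between genes and 4.07% on exons.

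Shared sites more often held the CTCF core. A match lay in the 300 bases around the centre of 29.5% (28.6 to 30.4%) of shared and 16.7% (16.3 to 17.2%) of CHM13-only peaks in CHM13 cells, a difference of 12.8 percentage points (11.8 to 13.7) with the same direction on all 23 chromosomes. The shares were 31.7% and 11.9% (8.52 to 16.3%) in RPE-1 cells, a difference of 19.9 points (15.4 to 23.3). Among 29108 windows of 300 bases placed every 100 kb over the genome, 0.828% held a match. Where a match lay within 1 kb, its median distance from the peak centre was 37.0 bp for shared and 36.0 bp for CHM13-only peaks, and 32.0 and 26.0 bp for shared and RPE-1-only peaks. Of the CHM13 SA1 peaks with a core match 39.7% were shared, and of those without one 24.1%.

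Letters bound by other factors showed a different order. TGANTCA, bound by AP-1 (dimers of FOS and JUN proteins), occurred in 16.9% (16.4 to 17.3%) of CHM13-only, 9.33% (8.79 to 9.91%) of shared CHM13 and 11.1% (7.89 to 15.4%) of RPE-1-only peaks, and in 9.13% of the genome windows. CHM13-only peaks were above shared ones on 22 of the 23 chromosomes. CHM13 peaks with AP-1 letters and no CTCF core were shared in 14.0% of 5028 cases. GGAATG, bound by TEAD factors, occurred in 20.5% of CHM13-only and 17.2% of shared CHM13 peaks (windows 15.9%), and GCCNNNGGC, bound by TFAP2 factors, in 9.76% and 8.91% (windows 4.31%). AGATAA, bound by GATA factors, occurred in 23.0% (18.3 to 28.3%) of RPE-1-only, 15.6% of shared RPE-1, 16.4% of CHM13-only and 16.2% of shared CHM13 peaks, and in 20.9% of the windows. TEAD, TFAP2 and GATA letters were searched on both strands, and TGANTCA reads the same on both. The median GC content was 44.0% for shared and 43.0% for CHM13-only peaks, 44.3% for shared and 41.7% for RPE-1-only peaks, and 40.0% for the windows. A match is a description of the sequence, and binding of these factors was not measured.

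Since shared CHM13 peaks were wider, the CHM13 peaks were also compared within quartiles of width, a comparison added after the widths had been seen. The directions were the same in all 4 quartiles. Among peaks of 749 to 7280 bp, 20.2% of CHM13-only and 4.98% of shared peaks lay at starts, 7.62% and 24.6% held a CTCF core, and 17.3% and 10.2% held AP-1 letters. Among peaks of 228 to 487 bp, the same shares were 4.62% and 1.25% for starts, 15.7% and 27.3% for the CTCF core, and 16.8% and 11.3% for AP-1, for 9269 CHM13-only and 319 shared peaks.

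**Figure D2:**
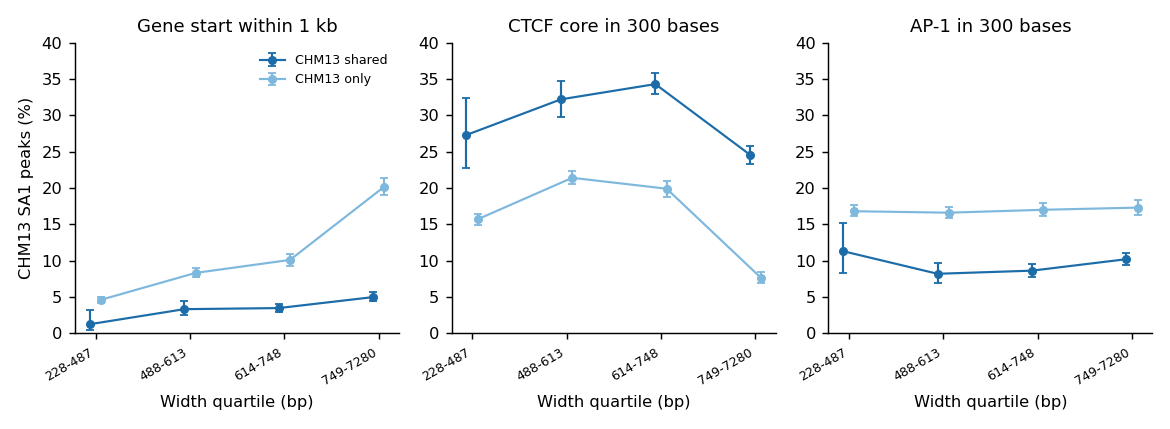
Each panel plots the share (%) of CHM13 SA1 peaks in a quartile of width (bp) for shared and CHM13-only peaks, with Wilson 95% intervals as error bars. From left to right the panels show a protein-coding start within 1 kb, the CTCF core and the AP-1 letters in 300 central bases; shared and CHM13-only peaks keep the same order in every quartile, and CHM13-only peaks of 749 to 7280 bp reach 20.2% at starts.

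Almost all shared SA1 peaks of CHM13 cells had the other subunits with them. RAD21 of the own line overlapped 99.8% (99.8 to 99.9%) of shared and 92.6% (92.3 to 92.9%) of CHM13-only peaks in CHM13 cells, a difference of 7.22 percentage points (6.90 to 7.54). In RPE-1 cells it overlapped 79.2% (78.4 to 80.0%) of shared and 58.5% (52.6 to 64.2%) of RPE-1-only peaks, a difference of 20.7 points (14.9 to 26.7). For SA2 of the own line the shares were 99.4% and 80.7% in CHM13, 50.8% and 25.9% in RPE-1 cells. The levels of the lines are not comparable, since the RAD21 antibodies differed and the RAD21 list had 73739 peaks in CHM13 and 14939 in RPE-1 cells. The RPE-1 SA2 list held 6389 peaks on hg38 and 9579 on CHM13 v1.0, and on the latter SA2 overlapped 68.6% of shared and 41.2% of RPE-1-only peaks.

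A part of the CHM13-only peaks without RAD21 lay in centromeric repeats. On hg38, 23 blocks of α-satellite sequence, 59.0 Mb in all, were delimited by clusters of CENP-B box matches. They held 1292 SA1 peaks of CHM13 cells, of which 18 were shared and 18.7% overlapped RAD21, and 19 SA1 peaks of RPE-1 cells, of which 1 was RPE-1-only. hg38 holds satellite models in such regions. For CHM13 v1.0 the paper describes the density of cohesin peaks in α-satellite arrays as negligible beside random regions. The counts in these blocks are therefore not read as enrichment of SA1. Of the 2047 CHM13-only peaks without RAD21, 1046 (51.1%) were in these blocks. Without the blocks the RAD21 difference between shared and CHM13-only peaks was 3.67 percentage points, and on CHM13 v1.0, where 99.9% of shared and 96.5% of CHM13-only peaks overlapped RAD21, it was 3.42.

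Absence from the SA1 list of a line did not always mean absence from its other cohesin lists. Of the CHM13-only SA1 peaks, 20.0% (19.5 to 20.5%) overlapped a RAD21 peak of RPE-1 cells and 20.8%, 5773 peaks, a RAD21 or SA2 peak. On CHM13 v1.0 these shares were 23.8% and 26.0%. Of the RPE-1-only SA1 peaks, 22.6% overlapped a RAD21 peak of CHM13 cells and 26.7% (21.7 to 32.2%) a RAD21 or SA2 peak. For comparison, RPE-1 RAD21 overlapped 79.2% of the shared CHM13 peaks, a share that the grouping by RPE-1 SA1 peaks itself raises. A RAD21 peak in the own line and no cohesin peak of any kind in the other was found for 19973 CHM13-only peaks (72.0%) and for 118 RPE-1-only peaks (43.7%). Another 74 RPE-1-only peaks (27.4%) had no RAD21 or SA2 peak in either line.

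**Figure D3:**
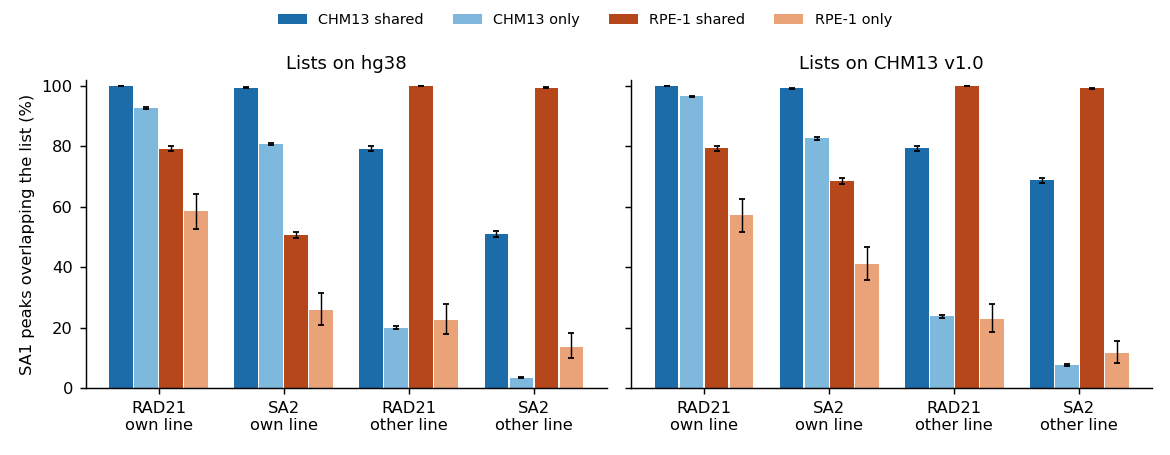
Bars give the share (%) of SA1 peaks of each group that overlap a RAD21 or SA2 peak of the own or the other line, on hg38 (left) and CHM13 v1.0 (right), with Wilson 95% intervals. Within each line, shared peaks stand above one-line peaks for every list, and for lists of the other line the grouping itself raises the shared bars. The own-line SA2 share of the RPE-1 groups is higher on CHM13 v1.0 than on hg38.

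SA1 sites were shared unevenly among the chromosomes. The share of CHM13 SA1 peaks with an RPE-1 partner was lowest on chromosome X, 18.1% (15.9 to 20.5%), and highest on chromosome 12, 35.2% (33.1 to 37.4%), and it was 18.5% and 37.0% on CHM13 v1.0. Both arms of these chromosomes were alike, with 18.1% on each arm of X and 37.1% and 35.4% on the short and long arms of chromosome 12. On chromosome 10 the arms differed, with 23.1% (19.7 to 26.8%) on the short arm and 36.4% (33.7 to 39.3%) on the long arm. RPE-1-only peaks made up 10.6% (29 of 273, 7.50 to 14.8%) of the RPE-1 SA1 peaks of chromosome 13, the highest share, and 10.7% there on CHM13 v1.0. On chromosome 19 there were 0 RPE-1-only peaks among 240 (Wilson interval up to 1.58%).

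**Figure D4:**
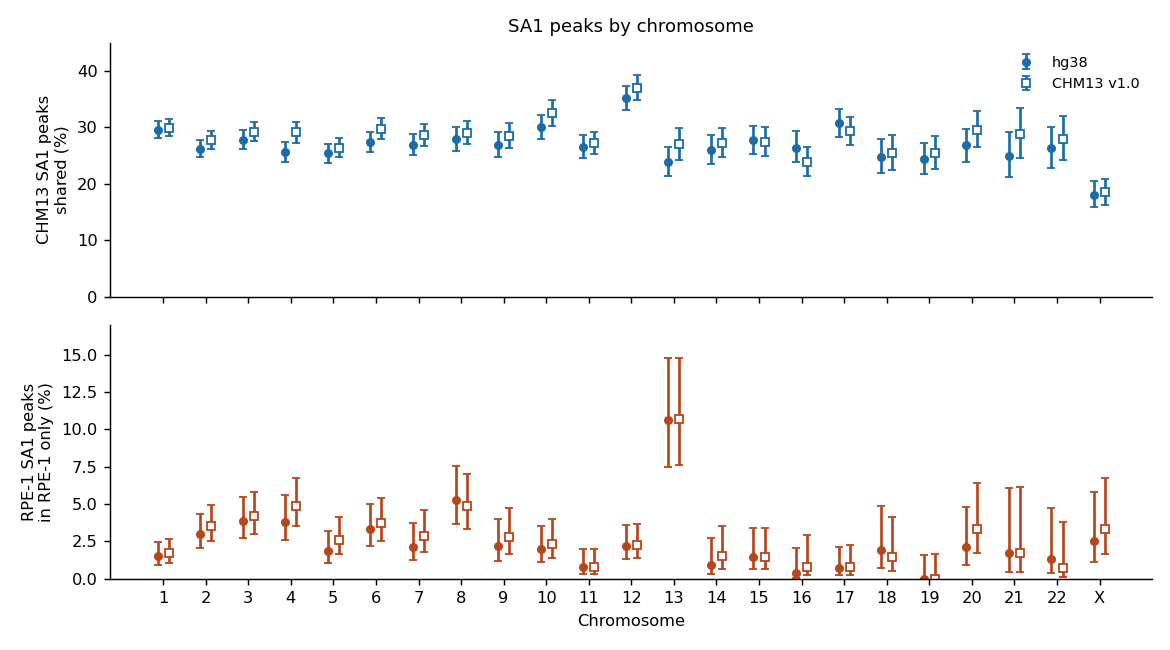
Points give, for chromosomes 1 to 22 and X, the share (%) of CHM13 SA1 peaks that overlap an RPE-1 SA1 peak (top) and the share (%) of RPE-1 SA1 peaks in RPE-1 only (bottom), on hg38 (filled) and CHM13 v1.0 (open), with Wilson 95% intervals. Chromosome 12 is highest and X lowest in the top panel, and chromosome 13 is highest in the bottom panel at 10.6% on hg38.

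At the level of genes, SA1 at starts was largely a feature of the CHM13 list. Of 19962 protein-coding genes, 398 (1.99%) had an SA1 peak within 1 kb of the start in both lines, 3126 (15.7%) in CHM13 cells only and 7 (0.0351%) in RPE-1 cells only. In 50 of the 3126 genes the CHM13 start peak overlapped an RPE-1 SA1 peak that lay more than 1 kb from the start. An RPE-1-only peak lay in or within 10 kb of 119 genes (0.596%). The groups of genes described next are read against these shares.

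Mesenchymal genes had CHM13-only SA1 starts in 9 of 14 cases (64.3%), against 15.7% of all genes. They were the cadherin gene CDH2 (2744 bp), FN1 (2383 bp), PRRX1 (1180 bp), VIM (2358 bp) and the transcription factor genes SNAI1 (910 bp), SNAI2 (3987 bp), TWIST1 (2040 bp), ZEB1 (3888 bp) and ZEB2 (2169 bp). All 9 peaks were wider than the median of 657 bp for CHM13-only start peaks. The collagen genes COL1A1 (2493 bp in CHM13 and 650 bp in RPE-1 cells) and COL1A2 (1769 and 507 bp) had SA1 at the start in both lines. S100A4, THY1 and TWIST2 had it in neither. A CHM13-only SA1 start does not mean that RPE-1 cells lacked cohesin there, and the SNAI2 peak overlapped RAD21 of RPE-1 cells. Of 12 epithelial genes, none had SA1 at the start in either line. The keratin genes KRT8 and KRT18, which are neighbours, shared 1 RPE-1-only peak of 282 bp (chr12:52952126-52952407) on an exon, with a CTCF core match, AP-1 letters and RAD21 of RPE-1 cells.

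Among 18 genes of the pigment epithelium and eye, TTR (transthyretin) had SA1 at the start in both lines, with 814 bp in CHM13 and 469 bp in RPE-1 cells. RDH5 (461 bp) and RDH10 (700 bp), which encode retinol dehydrogenases, had it in CHM13 cells only, and the other 15 in neither. MITF, a regulator of pigment cells, had an RPE-1-only peak of 444 bp (chr3:69792056-69792499) in an intron, 52.6 kb downstream of the start. It had RAD21 and SA2 of RPE-1 cells, no cohesin peak of CHM13 cells and no CTCF core match, and MITF was the only 1 of the 18 genes with an RPE-1-only peak in or within 10 kb of it. The central bases of this peak are printed because the results on MITF rest on this peak alone.
RPE-1-only site in MITF (chr3:69792228-69792328): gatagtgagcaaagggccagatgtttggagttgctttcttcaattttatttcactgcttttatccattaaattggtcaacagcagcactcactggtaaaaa

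Of 18 trophoblast regulators, the imprinted gene PEG10 (1368 bp) had a CHM13-only SA1 start and 17 had none, and none had an RPE-1-only peak nearby. Of 20 genes of cohesin and its regulators, STAG1 itself had SA1 at the start in both lines (2325 bp in CHM13 and 383 bp in RPE-1 cells). CDCA5 (594 bp), which encodes sororin, CTCF (682 bp), PDS5A (2041 bp), PDS5B (639 bp) and STAG2 (715 bp) had it in CHM13 cells only. The start peak of PDS5A overlapped an RPE-1 SA1 peak farther from the start. Of 7 genes of shelterin and telomerase, which protect and extend telomeres, TINF2 (976 bp) had a CHM13-only start and 6 had none.

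HOX genes, which lie in separate clusters, and clustered protocadherin genes gave unlike counts. Of 39 HOX genes, HOXB5 had SA1 at the start in both lines (522 bp in CHM13 and 337 bp in RPE-1 cells). HOXC5, HOXC10 and HOXD8 had it in CHM13 cells only, and 35 in neither. A shared peak lay in or within 10 kb of 26 HOX genes. The same peak can count for neighbouring genes, and the share over all genes is not given, so no result is read from this count. Of 53 clustered protocadherin genes, of which each neuron expresses a random few, 21 (39.6%) had CHM13-only starts, 1 (PCDHGA11) starts in both lines and 1 (PCDHGB7) an RPE-1-only start. The PCDHGB7 peak of 496 bp (chr5:141417390-141417885) had RAD21 of RPE-1 cells and no cohesin peak of CHM13 cells. It lay in or within 10 kb of 18 overlapping gamma protocadherin genes, which accounts for 18 of the 119 genes with an RPE-1-only peak nearby. The protocadherin genes are similar copies, among which reads may be placed with less certainty.

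The 7 genes with an RPE-1-only SA1 start had peaks of 330 to 784 bp. Among them were ACVR2A (784 bp), an activin receptor, GRIN2A (589 bp), a glutamate receptor subunit, PCDHGB7 (496 bp), NALF1 (461 bp), SOX15 (331 bp) and CLSTN2 (330 bp). All 7 peaks had RAD21 of RPE-1 cells. The peak at ACVR2A also had RAD21 and SA2 of CHM13 cells, and those at GRIN2A, PCDHGB7, NALF1, SOX15 and CLSTN2 had no cohesin peak of CHM13 cells. The genes with the most RPE-1-only peaks in or around them were MDGA2, of 836 kb, and ZNF385D, of 961 kb, with 3 each, and another 11 genes had 2, among them ABLIM1, AUTS2, EYS and GPC5. The 1-Mb bin with ACVR2A and ORC4 on chromosome 2 and the bin with HTR7, RPP30 and ANKRD1 on chromosome 10 held the most RPE-1-only peaks, 4 each.

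Some genes had many CHM13-only peaks and no shared one, counted in the gene and 10 kb on either side. NAALADL2, a gene of 1372 kb, had 32, BABAM2 19, CNTNAP2 18, NREP and RUNX2 17 each, DLC1 15, CPQ 14, ADAMTS12 13 and the dystrophin gene DMD 12. Per Mb of gene and flanks they came to 47.9 at NREP, 47.7 at RUNX2, 40.5 at BABAM2, 33.5 at ADAMTS12, 27.7 at DLC1, 26.7 at CPQ and 23.0 at NAALADL2, against 9.54 CHM13-only peaks per Mb over all chromosomes analysed. At CNTNAP2 (7.74 per Mb) and DMD (5.31 per Mb), which span 2305 and 2242 kb, they were below that average. The genes were picked by their number of CHM13-only peaks, which itself favours densities above the average, so no result is read from these densities. None of these genes had an SA1 peak of RPE-1 cells in the gene or within 10 kb. The choice of genes without a shared peak nearly fixed this, since RPE-1-only peaks lay in or within 10 kb of only 0.596% of all genes. All 17 peaks at RUNX2, a regulator of bone formation, overlapped RAD21 and 14 overlapped SA2 of CHM13 cells, while 1 overlapped RAD21 of RPE-1 cells, 4 held AP-1 letters and 0 a CTCF core. At NAALADL2 all 32 overlapped RAD21, 12 held AP-1 letters and 1 a CTCF core, and at BABAM2 10 of 19 held AP-1 letters and 0 a CTCF core. At CNTNAP2, in contrast, 1 of 18 held AP-1 letters and 3 a CTCF core. AP-1 letters occurred in 6 of 17 peaks at NREP, 5 of 15 at DLC1 and 5 of 12 at DMD. They occurred in 3 of 14 at CPQ and 2 of 13 at ADAMTS12. Over all CHM13-only peaks, 92.6% overlapped RAD21 and 80.7% SA2 of CHM13 cells, and 20.0% RAD21 of RPE-1 cells. AP-1 letters occurred in 16.9% of all CHM13-only peaks and a CTCF core in 16.7%. Outside the α-satellite blocks, the 1-Mb bin with the most CHM13-only peaks and no shared one contained the cadherin gene CDH11 on chromosome 16. It held 41 peaks with a median width of 654 bp, of which 41 overlapped RAD21 of CHM13 cells, 0 overlapped RAD21 of RPE-1 cells, 18 held AP-1 letters and 3 a CTCF core.

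The windows below show the AP-1 letters (capitals) in the widest peak of up to 2 kb with a match and no CTCF core or exon at 2 of these genes, which were chosen after their peaks had been counted.
CHM13-only site at RUNX2 (chr6:45617483-45617583): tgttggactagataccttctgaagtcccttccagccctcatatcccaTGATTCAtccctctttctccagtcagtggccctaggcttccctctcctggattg
CHM13-only site at NAALADL2 (chr3:175267192-175267292): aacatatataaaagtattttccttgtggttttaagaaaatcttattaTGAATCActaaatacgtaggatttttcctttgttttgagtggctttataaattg
The peak at RUNX2 spanned 737 bp and that at NAALADL2 1409 bp, and the AP-1 letters began at -49 and 60 bp from their centres.

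**Figure D5:**
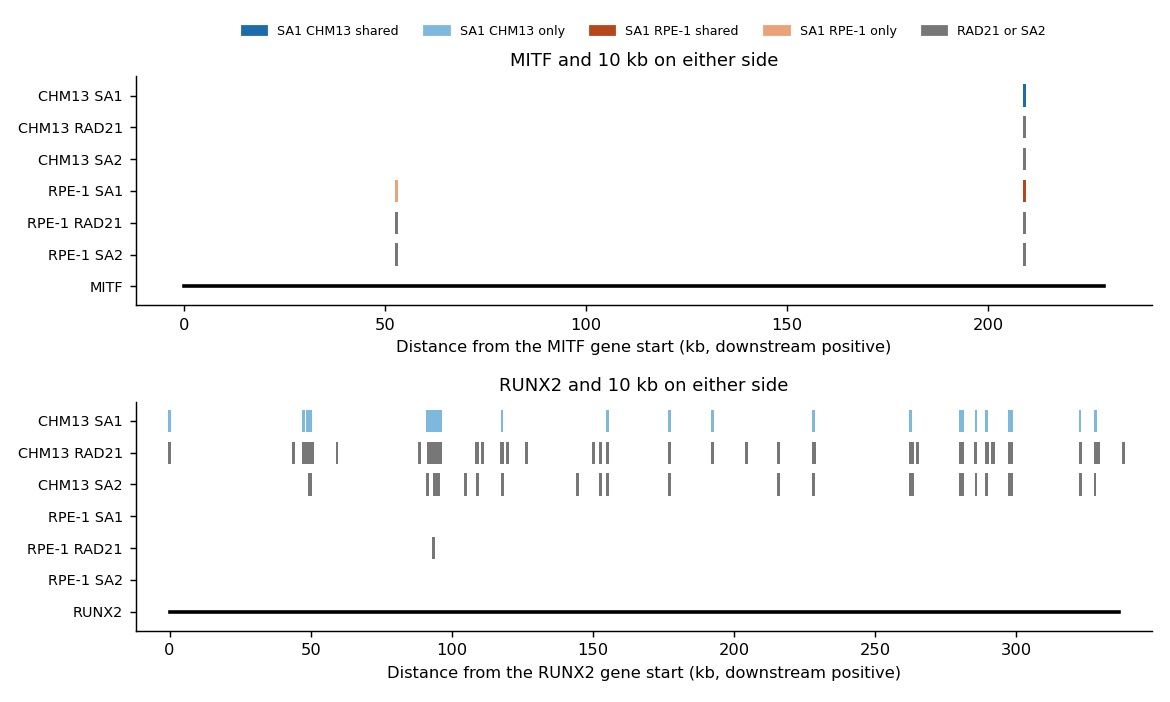
Peaks of SA1, RAD21 and SA2 in CHM13 and RPE-1 cells are drawn along MITF (top) and RUNX2 (bottom) by distance from the gene start (kb), with narrow peaks drawn at a least width so that they can be seen and the gene as a black line. MITF has 1 SA1 peak in CHM13 and 2 in RPE-1 cells, of which the one at 52.6 kb is RPE-1-only, while RUNX2 has 17 SA1 peaks in CHM13 cells, all CHM13-only, and 0 in RPE-1 cells. RUNX2 was picked for having many CHM13-only peaks and no shared one.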

How the data were processed

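For each library, the authors mapped read pairs with bwa mem and used samtools to drop unmapped, secondary and supplementary records. Peaks came from macs2. The reduce function of GenomicRanges united them, and loci seen in at least 2 replicates stayed. These steps are stated for CHM13 v1.0. The labels name hg38, whose alignment is not described in the sources used here. The deposited lists give chromosome, start and end only, without peak height. The study states read numbers per library, which served here only to compare the depth of the SA1 libraries between the lines.

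Overlaps were computed with Python 3.11.15, numpy 2.4.6, scipy 1.17.1 and pandas 2.3.3 and tested on simulated data against bedtools 2.31.1. Genes came from GENCODE 44 (hg38) and no coordinates were converted between builds. Shares carry Wilson intervals, medians order-statistic intervals and differences of shares intervals built from the Wilson bounds. Named genes were those of fixed lists with an SA1 start in both lines or an RPE-1-only peak within 10 kb, the 10 widest start peaks per group, the 10 genes with the most peaks of one line and the top 1-Mb bins. Genes of fixed lists with CHM13-only starts, single bins and genes within these sets were picked for description after their values were seen. The members and lists were chosen with earlier results of these data known. RAD21 and SA2 lists served only for overlaps. The alternatives were stricter and looser overlap, joined peaks, other windows and gene sets, no α-satellite blocks, and CHM13 v1.0. Some genes and sites that this rule selects are not reported here.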

Additional observations from a re-analysis of the deposited data

Results flagged for a closer look

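SA1 peaks also lay on hg38 sequences outside chromosomes 1 to 22 and X, which no comparison used. The CHM13 list held 131 peaks on 50 such sequences, 0.342% of its 38284 entries, and the RPE-1 list held 17 peaks on 10, 0.159% of its 10724 entries. Both counts were above a fixed floor of 3, which does not test whether the peaks are real. Of these peaks, 16 in each line were shared, and 84 of the 131 and 16 of the 17 overlapped RAD21 of the own line. No control list was used for these sequences.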

How the results depend on the processing

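No paired analysis was possible because each deposited list merges the replicates of a line, and for the same reason no replicate could be left out. The peaks carry no height or p-value, so a stricter peak threshold could not be applied. Of 36 recomputed values, 20 lay inside the 95% interval of the value in the report, the CTCF core differences among them, and none changed direction. The 16 values below lay outside it. The share of CHM13 SA1 peaks that were shared was 17.3% with 50% of both peaks overlapping and 28.0% with peaks within 1 kb counted. It was 28.1% without α-satellite blocks, 28.5% on CHM13 v1.0 and 27.9% with peaks closer than 1 kb joined. When both lists kept only SA1 peaks with RAD21 of their own line, it was 22.8% of 36090 CHM13 peaks. Of these 36090 peaks, 10378 overlapped an SA1 peak of the full RPE-1 list. For RPE-1 the shared share was 61.8% with 50% of both peaks overlapping and 97.1% on CHM13 v1.0. It was 98.1% when both lists kept only peaks with RAD21 of their own line. The width difference of CHM13 peaks was 107 bp with 50% overlap, 168 bp on CHM13 v1.0 and 167 bp without blocks, and that of RPE-1 peaks 67.0 bp with 50% overlap. The rule of 50% overlap depends on widths itself, so it also shapes these width differences and the shares under it. The gene-start difference in CHM13 cells was -4.66 percentage points with the starts of all annotated genes. The RAD21 difference in CHM13 cells was 3.42 points on CHM13 v1.0 and 3.67 points without blocks. The RPE-1-only group has 270 peaks, which limits the precision of its shares.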

Other observations

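The arms of chromosomes 10, 12 and X were also compared for the other subunits, after the SA1 shares were known. RAD21 peaks of CHM13 cells overlapped an RPE-1 RAD21 peak in 13.4% (11.6 to 15.5%) of cases on the short arm of chromosome 10 and 24.6% (22.9 to 26.4%) on its long arm, against 19.5% on all chromosomes. For SA2 these shares were 8.81% (6.84 to 11.3%) and 22.6% (20.5 to 24.9%), against 14.2% on all chromosomes. On chromosome 12 the RAD21 shares were 23.5% and 23.0% on the short and long arms and the SA2 shares 20.6% and 19.9%. On chromosome X the RAD21 shares were 15.6% (13.4 to 18.0%) and 20.5% (18.0 to 23.2%) and the SA2 shares 7.26% (5.39 to 9.70%) and 13.9% (11.4 to 16.8%) on the short and long arms. The short arm of X was thus below all chromosomes for both subunits, while the intervals of the long arm contained the values of all chromosomes. All 3 subunits come from the same 2 lines, and these shares are descriptions without a replicate check.

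CHM13-only SA1 peaks were also divided by their spacing, a division chosen after the peaks had been counted. Outside the α-satellite blocks, AP-1 letters occurred in 19.6% (18.8 to 20.3%) of the 10274 CHM13-only peaks with another CHM13 SA1 peak within 10 kb and in 16.5% (15.9 to 17.1%) of the 16211 without one. The CTCF core occurred in 14.6% (13.9 to 15.3%) and 19.4% (18.8 to 20.0%), respectively. The share of all CHM13 SA1 peaks that were shared was 27.4% (26.7 to 28.1%) and 28.6% (28.0 to 29.2%) in these classes.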
